A study of Drosophila melanogaster with 4 samples.

Results

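The transcripts described here encode 6 enzymes of glycolysis in the head of the adult fruit fly, Drosophila melanogaster: Hex-A, Ald1, Tpi, Gapdh1 and Pgk, with Eno as the last of the 6 in pathway order. They were found as the spots whose only gene symbol in the platform annotation is one of these names, with Entrez IDs 45875, 43183, 43582, 35728, 33461 and 33351 in the same order. Together they take 18 spots, which are duplicates of 9 cDNA clones, among 7558 clones with 1 symbol for 6793 genes on the array. Ald1, Tpi and Gapdh1 have 2 clones each and Hex-A, Pgk and Eno 1 each.

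The flies were unmated Oregon-R wild-type males, aged 10 to 11 days, kept for 3 days in vials of 30 on medium that held 16 mg/ml gabapentin, or on normal food. Gabapentin is an anticonvulsant whose known target in mammals is an auxiliary calcium channel subunit, alpha2delta. On each of 4 arrays with 2 colours, cRNA from a pool of heads of gabapentin-fed flies was hybridised together with cRNA from a pool of heads of flies on normal food, so each array is 1 biological replicate and pairs both conditions. Cy5 marked the gabapentin cRNA on arrays 1 and 2, and Cy3 marked it on the dye-swapped arrays 3 and 4. Whole heads hold neurons, photoreceptors, glia, muscle and fat body, and in such bulk samples fewer cells of a type and less RNA per cell cannot be told apart.

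Glycolysis splits glucose into pyruvate in the cytosol and yields ATP and NADH. Hexokinase traps glucose as glucose 6-phosphate, aldolase cuts the phosphorylated hexose into a pair of triose phosphates, and the later enzymes oxidise these and recover ATP. In the fly brain, glia are known to run glycolysis and to pass its products on to neurons. The question here was whether the enzymes along the pathway differ in transcript level between gabapentin-fed and control heads, and whether they do so alike.

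Few spots carried a value that passed the authors' filter, and this sets what can be said. Arrays 1 to 4 had values for 1880, 2170, 1376 and 668 of 13824 clones, with median log2 ratios of 1.14, 0.80, 0.52 and 0.78 of the columns as deposited. The deposited value of an array is its normalized log2 ratio between the dyes, and the labels do not state whether the columns of arrays 3 and 4 are Cy5 over Cy3 or had been turned to gabapentin over normal food. In the turned reading, arrays 3 and 4 have their sign changed, which gives gabapentin over normal food if the values are Cy5 over Cy3. In the as-deposited reading, all columns are taken as gabapentin over normal food. Both readings thus take arrays 1 and 2 as gabapentin over normal food. Direction is therefore not settled, both readings are given, and each value is relative to the median of its array over all clones. Of marker genes of head tissues, 6 of the 8 photoreceptor genes on the array had a value, as did 3 of 7 for muscle, 2 of 7 for fat body and 1 of 4 for glia, while the 1 neuron marker and the 2 genes of haemolymph cells had none. Over all clones with 1 symbol, 2199 of 7558 had a value, and passing a spot filter is only weak evidence of the tissue. Values by array are given next as deposited, and on arrays 3 and 4 each takes the opposite sign in the turned reading.

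Of the 9 clones of the 6 enzymes, 8 had a value on at least 1 array and 6 reached the 3 arrays needed for a test, exactly 1 for each enzyme. No clone had a value on all 4 arrays. The tested clones of Hex-A, Ald1, Tpi, Pgk and Eno had values on arrays 1, 2 and 3, and that of Gapdh1 on arrays 1, 2 and 4. Every mean below thus rests on both arrays with gabapentin in Cy5 and on a single array with gabapentin in Cy3.

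**Figure D1:**
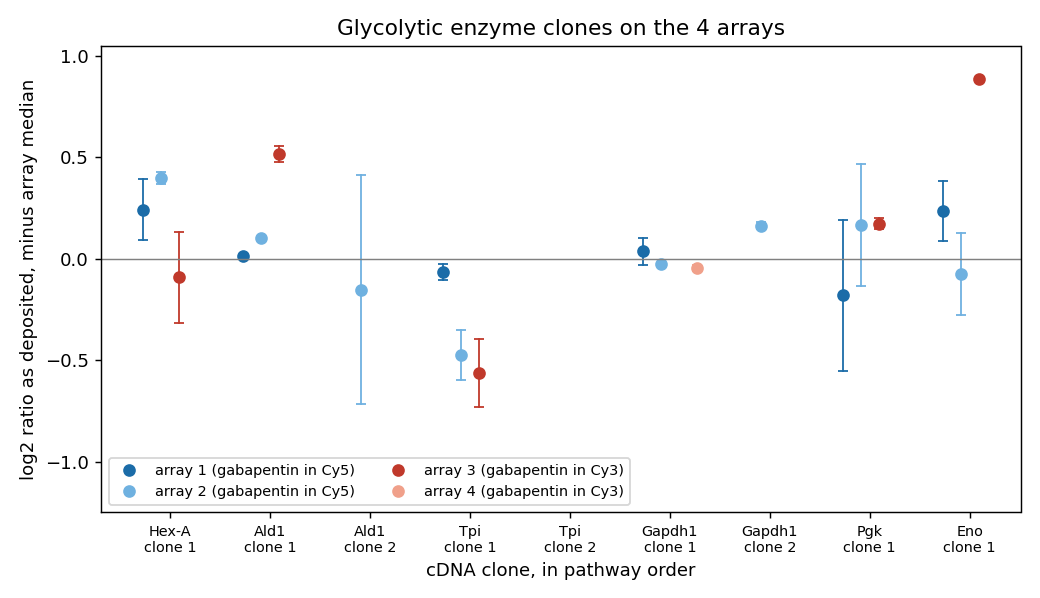
Log2 ratio as deposited minus the array median (vertical axis) for the 9 clones of the 6 enzymes in pathway order (horizontal axis), with a filled circle for the clone mean, dashes joined by a line for its duplicate spots, and colours for the arrays. Eno and Ald1 stand highest on array 3, at 0.89 and 0.52, Tpi lies below 0 on its 3 arrays, and Gapdh1 clone 1 stays within 0.05 of the median.

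Hex-A encodes hexokinase A, which commits glucose to the pathway. Relative to the array medians its clone stood at 0.24 on array 1, 0.40 on array 2 and -0.09 on array 3. It was thus above the median on both arrays with gabapentin in Cy5 and, as deposited, just below it on the array with gabapentin in Cy3, or 0.09 above it when turned. On array 2 it lay above 91.3% of all clones and on array 3 above 42.3%. Its duplicate spots on array 3 differed by 0.45, more than those of 89.1% of clones there.

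Ald1 encodes fructose-bisphosphate aldolase. Its tested clone stood at 0.02, 0.10 and 0.52 on arrays 1, 2 and 3. It lay close to the median on both arrays with gabapentin in Cy5 and, as deposited, above 87.2% of clones on array 3, where its turned value is -0.52. The duplicate spots agreed, with differences of 0.005, 0.007 and 0.08. The second clone of Ald1 had a value on array 2 alone, at -0.15, and its duplicate spots there differed by 1.13, more than those of 97.6% of clones.

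Tpi encodes triosephosphate isomerase, which interconverts the products of aldolase. Its clone stood at -0.06, -0.47 and -0.56 on arrays 1, 2 and 3. As deposited it was below the median on each of the 3, near it on array 1 and among the lowest 13.2% and 18.7% of clones on arrays 2 and 3. In the turned reading its value on array 3 is 0.56, so that arrays 2 and 3 then lie on opposite sides of the median. The second clone of Tpi had no value.

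Gapdh1 encodes glyceraldehyde-3-phosphate dehydrogenase, the step that makes NADH. Its tested clone stood at 0.04, -0.02 and -0.05 on arrays 1, 2 and 4. The SD over its as-deposited values was 0.04, the smallest of the 6, against a median SD of 0.24 over all 854 clones tested. Gapdh1 is also the only one measured on array 4 in place of array 3, on which all clones spread most. The other clone of Gapdh1 had a value on array 2 only, 0.16 above the median.

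Pgk encodes phosphoglycerate kinase, which makes ATP from the product of Gapdh1. Its clone stood at -0.18, 0.17 and 0.17 on arrays 1, 2 and 3, on either side of the median. Its duplicate spots differed by 0.74 on array 1 and 0.60 on array 2, more than those of 91.2% and 92.4% of clones, so the spots of 1 clone disagreed by more than the arrays did. On array 3 they differed by 0.05.

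Eno encodes enolase, which makes phosphoenolpyruvate. Its clone stood at 0.23, -0.07 and 0.89 on arrays 1, 2 and 3. As deposited the value on array 3 is 1.85-fold the median, the 31st highest of the 1376 clones there, and turned it is -0.89, as far below the median. Its duplicate spots agreed to 0.005. On array 2 the same clone lay just below the median, so the large difference is that of array 3 alone.

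**Figure D2:**
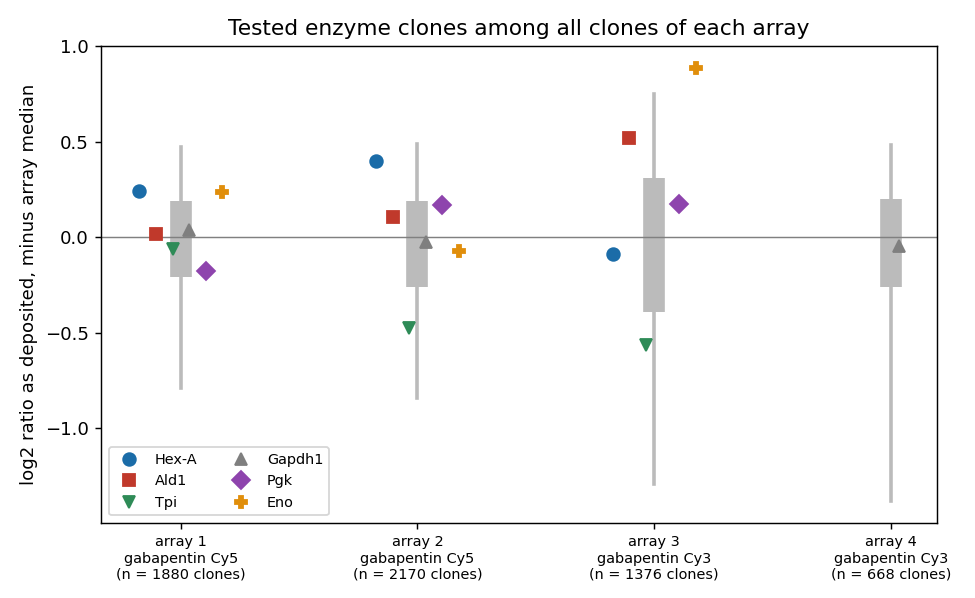
Log2 ratio as deposited minus the array median (vertical axis) for the tested clone of each enzyme on arrays 1 to 4, beside all clones of the array, whose 5th to 95th percentiles are drawn as thin grey lines and whose quartiles as thick ones. The enzymes span 0.42 on array 1, 0.87 on array 2 and 1.45 on array 3, and Eno on array 3 lies above the 95th percentile of 0.75.

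The enzymes stood furthest apart on array 3. The 5 enzymes measured on arrays 1, 2 and 3 spanned 0.42, 0.87 and 1.45 log2 units on these arrays. Array 3 also had the widest spread of all clones, with a median absolute deviation of 0.33, against 0.20 and 0.22 on arrays 1 and 2. In units of that deviation the span was 2.11, 3.92 and 4.36. As deposited, the order of the enzymes differed between arrays: Hex-A was highest on arrays 1 and 2, on array 1 with Eno just below it, and second lowest on array 3, Tpi was lowest on arrays 2 and 3, and Pgk was lowest on array 1. Turned, the order on array 3 is the reverse, with Tpi highest at 0.56, Hex-A next at 0.09 and Eno lowest at -0.89. Some markers of head tissues also stood far from the median on array 3, with values given as deposited. The 3 muscle clones with a value, from 7 muscle genes of the list on the array, had a median of 0.83 there, against 0.05 (2 clones) and 0.10 on arrays 1 and 2. The 6 photoreceptor clones had a median of 0.59 on array 3, against 0.30 (5 clones) and a higher 0.75 on arrays 1 and 2. The 1 glia clone was at 0.67 on array 3, against 0.08 and 0.28 on arrays 1 and 2. Fat body had 1 clone on array 3, at -0.01, and medians of -0.07 and -1.01 (2 clones each) on arrays 1 and 2. Their part in the values of Eno and Ald1 was not tested.

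In neither reading did an enzyme pass the test of gabapentin over normal food. With arrays 3 and 4 turned, the means were 0.24 for Hex-A, -0.13 for Ald1, 0.01 for Tpi, 0.02 for Gapdh1, -0.06 for Pgk and -0.24 for Eno (n = 3 arrays each). limma's SE ran from 0.17 for Gapdh1 to 0.22 for Eno, and the limma adjusted p was 0.999 for each. Of all 854 clones tested, 0 passed at an adjusted p under 0.05, which is a background of 0%, and 19 or 2.22% had an unadjusted p under 0.05, among them none of the 6. The 6 enzymes had 3 positive and 3 negative means and a median of -0.03, beside a median of -0.00 and 48.8% positive means over all clones tested.

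In the as-deposited reading the means were 0.18 for Hex-A, 0.21 for Ald1, -0.37 for Tpi, -0.01 for Gapdh1, 0.05 for Pgk and 0.35 for Eno (n = 3 arrays each). Tpi had the lowest adjusted p of the 6, at 0.287 (limma, SE 0.15, 95% interval from -0.71 to -0.03), and lay below the median on 3 of 3 arrays. Eno followed with an adjusted p of 0.403 (limma, SE 0.19, interval from -0.06 to 0.76) and lay above it on 2 of 3. The Eno mean rests largely on array 3, and that of Tpi on arrays 2 and 3. The Tpi mean ran from -0.52 to -0.27 when 1 array was left out. Its interval reached above 0 without array 2 (-0.77 to 0.14) or array 3 (-0.68 to 0.14), with n = 2 arrays in each. The Eno mean ran from 0.08 without array 3 to 0.56 without array 2 (n = 2 arrays each). Without array 2 its interval was 0.08 to 1.04 and its limma adjusted p 0.334. The other 4 had an adjusted p of 0.557 to 0.975 in limma. The background was again 0% of 854 clones at an adjusted p under 0.05. At an unadjusted p under 0.05 it was 15.2%, and Tpi was the only one of the 6 there, at 0.0372. The enzymes had 4 positive means of 6 and a median of 0.12, beside 66.7% positive means and a median of 0.09 over all clones tested. Without subtracting the array medians all 6 enzymes passed in this reading, with means from 0.45 for Tpi to 1.17 for Eno, but so did 97.5% of all clones. SAM, run as a one-class statistic on the same uncentred values, called 427 of all 854 clones tested and 4 of the 6 enzymes. These calls are thus not particular to the enzymes.

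**Figure D3:**
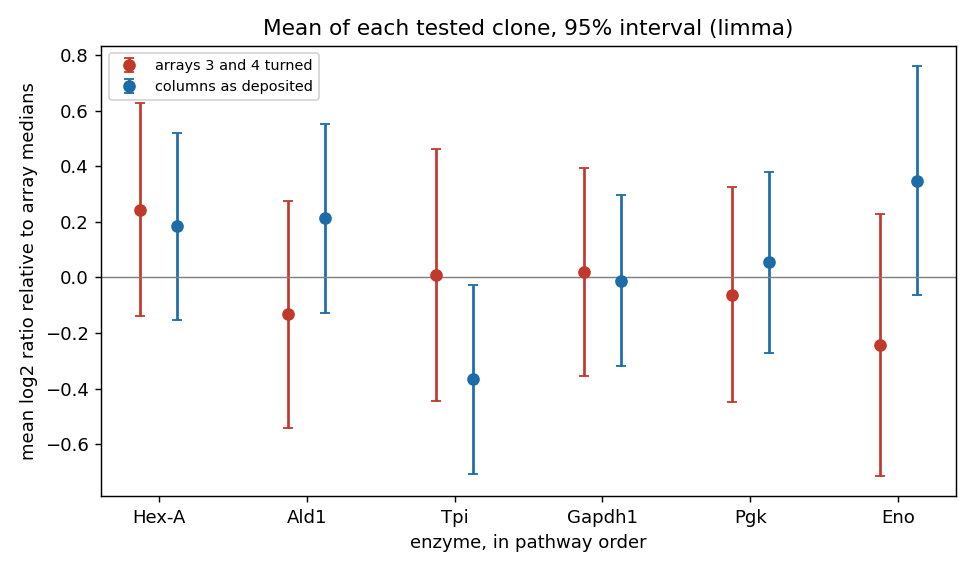
Mean log2 ratio relative to the array medians (vertical axis) of the tested clone of each enzyme, in pathway order (horizontal axis), with the 95% interval from limma as bars (n = 3 arrays each), in the turned reading (red) and the as-deposited reading (blue). Of the 12 intervals only that of Tpi in the as-deposited reading, from -0.71 to -0.03, lies to one side of 0, and it does not pass after adjustment.

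The intervals show which sizes of difference these arrays could not exclude. With the swapped arrays turned, they ran from 0.91-fold to 1.54-fold for Hex-A, from 0.69-fold to 1.21-fold for Ald1 and from 0.73-fold to 1.38-fold for Tpi. For Gapdh1 the interval was 0.78-fold to 1.31-fold, for Pgk 0.73-fold to 1.25-fold and for Eno 0.61-fold to 1.17-fold. As deposited they ran from 0.90-fold to 1.43-fold for Hex-A, 0.92-fold to 1.47-fold for Ald1, 0.61-fold to 0.98-fold for Tpi, 0.80-fold to 1.23-fold for Gapdh1, 0.83-fold to 1.30-fold for Pgk and 0.96-fold to 1.69-fold for Eno. Gapdh1 has the narrowest interval on the log2 scale in either reading, although its own 3 values spread far less than that, since limma moderates the SE over all clones.

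Between the 2 readings the sign of Ald1, Tpi, Gapdh1, Pgk and Eno changes, and that of Hex-A does not. Both readings take arrays 1 and 2 as gabapentin over normal food. The opposite ratio on all arrays would reverse every sign, that of Hex-A included. Hex-A is positive in both readings because arrays 1 and 2 carry its mean, and without array 3 the mean is 0.32 in either. For Eno and Ald1, array 3 decides the sign in the turned reading: without it their means are 0.08 and 0.06. For Tpi the mean without array 3 is -0.27, against 0.01 with array 3 turned. Among all clones tested, Hex-A ranked above 95.9% of the means in the turned reading and Eno above 6.79%. In the as-deposited reading Eno ranked above 89.0% and Tpi above 2.93%.

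With 2 arrays in one dye orientation and 1 in the other, a dye effect does not cancel in the mean of either reading. A limma fit with a coefficient common to all columns and a coefficient that changes sign with the dye orientation was therefore run over the same 854 clones, a choice made after seeing the data. The orientation coefficient was 0.21 for Hex-A, -0.23 for Ald1, 0.15 for Tpi, 0.03 for Gapdh1, -0.09 for Pgk and -0.40 for Eno, with an SE of 0.17 for each. Its adjusted p was 0.493 for Eno and 0.921 to 0.999 for the others in limma, against a background of 1.29% of clones called. At an unadjusted p under 0.05 the background was 7.49%, and Eno was the only enzyme there, at 0.0203. The common coefficient was 0.48 for Eno, with a limma adjusted p of 0.0732, and -0.42 for Tpi, against a background of 5.39% of clones called. Eno and Tpi were also the enzymes with an unadjusted p under 0.05 for it, at 0.0054 and 0.0167, against 19.9% of clones. None of the 6 enzymes passed for either coefficient. If the columns are Cy5 over Cy3, the orientation coefficient estimates gabapentin over normal food and the common one holds the dye effect. If the swapped arrays had already been turned, the common coefficient estimates gabapentin over normal food and the orientation one holds the dye effect. The same fit on clones with a value on all 4 arrays holds none of the enzymes. The SE is the same for each because limma pooled the spread over all clones here, with 1 residual degree of freedom per clone on 3 arrays.

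Differences between neighbouring enzymes on the same array do not depend on the centring. Neighbouring means next to each other in pathway order among the enzymes described here, not always adjacent steps. Pgi and Pfk act between Hex-A and Ald1, and phosphoglycerate mutase acts between Pgk and Eno. Ald1 minus Hex-A was -0.23, -0.30 and -0.61 on arrays 1, 2 and 3 in the turned reading, the same sign on each, with a mean of -0.38 ± 0.20 (SD, n = 3, exact sign-flip p = 0.25, two-sided). In the as-deposited reading the difference of array 3 has the other sign and the mean was 0.03 ± 0.50. Tpi minus Ald1 was -0.08, -0.58 and -1.08 as deposited, with a mean of -0.58 ± 0.50 (exact p = 0.25), and 0.14 ± 0.85 in the turned reading. Gapdh1 and Tpi shared arrays 1 and 2 only, on which Gapdh1 was higher by 0.10 and 0.45. Pgk minus Gapdh1 was -0.22 and 0.19 there, with opposite signs. Eno minus Pgk was 0.41, -0.24 and 0.71 as deposited, a mean of 0.30 ± 0.49, and -0.18 ± 0.57 in the turned reading.

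No exact test of 3 arrays can give a p under 0.25, and of 2 arrays under 0.5, so none of the 5 neighbouring pairs could pass. Adjusted over the 5 pairs, the exact p was 1 for every pair in the turned reading and 0.833 or 1 as deposited. Of all 15 pairs of enzymes, 5 kept 1 order on every array they share in each reading, namely 3 of the 10 pairs on 3 arrays and 2 of the others on arrays 1 and 2. As a background, all pairs among the 578 clones measured on arrays 1, 2 and 3 alone were taken. Of these, 18.7% kept 1 order on the 3 arrays in the turned reading and 33.9% as deposited, and 52.6% did on arrays 1 and 2. On 3 arrays the enzymes were near this background as deposited, and in the turned reading the difference from it was not tested. As deposited the 5 enzyme pairs were Hex-A over Tpi, Ald1 over Tpi, Gapdh1 over Tpi, Eno over Tpi and Hex-A over Gapdh1. With arrays 3 and 4 turned they were Hex-A over each of Ald1, Gapdh1, Pgk and Eno, and Gapdh1 over Tpi. Those on 3 arrays all share Hex-A when turned and Tpi as deposited, so they are not independent of each other.

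Of other glycolytic enzymes, few could be read. The list of further enzymes and older names, with hexokinase isoforms, Pgi, Pfk, phosphoglycerate mutase, pyruvate kinase and lactate dehydrogenase, matched 5 genes on the array, and 0 of their 6 clones were tested. Pfk, the phosphofructokinase that feeds aldolase, had a value on array 2 alone, at -1.14. Pgi, the glucose-6-phosphate isomerase, had one on array 3 alone, at -0.02. Hex-C, Pglym78 and Pglym87 had none. No statement on the regulated step at Pfk is possible from a single array.

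Of the branches of sugar metabolism, 9 listed genes were on the array, 5 had a value, and 3 clones of 2 genes were tested, and 0 passed in either reading. Both clones of UGP, which makes UDP-glucose for glycogen and trehalose synthesis, had values on arrays 1, 2 and 3. They stood at 0.31, -0.39 and 0.25 in 1 clone and at -0.14, -0.41 and 0.22 in the other, so the clones had the same sign on arrays 2 and 3 and not on array 1. Taldo, transaldolase of the pentose phosphate pathway, stood at -0.08, 0.09 and 0.19. The 3 clones had means from -0.25 to -0.06 and a median of -0.11 in the turned reading, and as deposited means from -0.11 to 0.07 and a median of 0.06. Treh, the trehalase that frees glucose from the blood sugar of flies, had 0.37 on array 2 and -0.23 on array 4 as deposited, on opposite sides of the median, or 0.37 and 0.23 in the turned reading, on the same side.

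The clones most like each enzyme were taken by the smallest root mean square difference of centred as-deposited values over the 3 arrays of the enzyme, among 403 clones with a symbol, or 119 for Gapdh1. For Hex-A these were alpha-Est3 and GCS1, at 0.058 and 0.065 log2 units. For Ald1 they were CG12239 and CG11843, at 0.044 and 0.059, and for Tpi Not3 and smog, at 0.07 and 0.099. For Gapdh1 they were D1 and dlg1, at 0.054 and 0.075, for Pgk CG5167 and CG5116, at 0.027 and 0.028, and for Eno mRRF2 and Hpd, at 0.076 and 0.127. None of the nearest clones was another of the 6 enzymes. Gapdh1 and the others could not be candidates for each other, since only Gapdh1 lacks array 3 and has array 4. Among the others, each had few fellow enzymes in its 403 candidates, so their absence does not show whether the enzymes move alike. Over all these candidates the median distance was 0.30 from Pgk and 0.54 from Tpi.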

How the data were processed

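Per the series' design text, the authors read the slides in GenePix Pro 6.0 and normalized ratios in Acuity 4.0. They dropped spots that were flagged bad, had 3% or more saturated pixels, an R2 between channels under 0.6 or a signal-to-noise value under 3. They also set a minimum raw intensity of 100. The deposited values were taken as log2 ratios. The base is inferred: their largest size, 9.11, exceeds what a 16-bit scan gives in log10 (4.82) and the natural log of 65535 over 100 (6.49), but not its log2 (9.36). Signal intensities were not used here, so the number of arrays limits the precision.

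Neighbouring spots were averaged to clones (all 7558 annotated pairs carry 1 symbol on both spots), and each array's median over all clones was subtracted. Of 15116 spots with 1 symbol, 14894 were found by Entrez ID in the RefSeq table of Release 6 plus ISO1 MT. Spots with 1 symbol, several or none form 7558, 51 and 6215 clones. For each clone with 3 or 4 values, limma 3.58.1 was run in R 4.3.3 (intercept, eBayes, Benjamini-Hochberg, threshold 0.05). Fits with 1 array left out took clones with at least 2 values. Pairs of enzymes were compared by exact sign-flip tests. Python 3.11.15 was used for tables and figures. The fits were also run on simulated data with independent noise. These data held no dye effect, so they cannot show how one acts on the means.

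The members, lists and tests were chosen with earlier results of these data known. The text names the 6 enzymes, measured genes of 3 lists of sugar and pyruvate metabolism, and for each enzyme the 2 nearest clones. Alternatives were no centring, centring on the tested clones, clones on all 4 arrays, both duplicate spots required, arrays scaled to 1 spread, a running median over 301 clones in row order, a one-class SAM statistic with 16 sign changes and the median of false calls over them (the authors used SAM 2.21), and leaving out each array. The fit with an orientation coefficient was chosen after seeing the data.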

Additional observations from a re-analysis of the deposited data

How the results depend on the processing

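No enzyme passed the test after centring, under any alternative or without any array. Without centring, as deposited, the means and limma adjusted p were 1.00 and 2.37e-05 for Hex-A, 1.03 and 1.54e-05 for Ald1, 0.45 and 0.046 for Tpi, 0.89 and 0.000142 for Gapdh1, 0.87 and 0.000188 for Pgk and 1.17 and 1.65e-06 for Eno, where 97.5% of all clones were called, since the array medians lie above 0. Turned and without centring, Ald1, Pgk and Eno had means of 0.34, 0.41 and 0.23 and did not pass. Some means near 0 changed sign. Turned, Tpi was at -0.06 with arrays scaled to 1 spread and -0.02 with the running median, and Gapdh1 at -0.00 with centring on the tested clones and -0.02 with the running median. As deposited, Pgk was at -0.05 with centring on the tested clones and Gapdh1 at 0.00 with the running median. Read as deposited, the turned means became 0.21 for Ald1, -0.37 for Tpi, -0.01 for Gapdh1, 0.05 for Pgk and 0.35 for Eno, and the turned pair differences 0.03 for Ald1 minus Hex-A, -0.58 for Tpi minus Ald1 and 0.30 for Eno minus Pgk. Requiring both duplicate spots changed no sign. When 1 array was left out, turned means ran from -0.25 to 0.06 for Ald1, -0.27 to 0.25 for Tpi, and -0.48 to 0.08 for Eno. As deposited they ran from -0.03 to 0.01 for Gapdh1 and -0.01 to 0.17 for Pgk. Turned pair differences ran from -0.33 to 0.50 for Tpi minus Ald1, -0.22 to 0.19 for Pgk minus Gapdh1 (1 array left) and -0.48 to 0.09 for Eno minus Pgk, and the as-deposited one from -0.26 to 0.19 for Ald1 minus Hex-A. The cause of these changes was not tested.

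The count of all clones called was 0 of 854 in either reading. In the turned reading it was 2 by SAM, 11 for the orientation coefficient, and 0 to 2 with 1 array left out, 2 of 1148 without array 1. As deposited it was 833 without centring, 3 with centring on the tested clones, 1 with arrays scaled, 2 with the running median and 2 by SAM. With 1 array left out it was 0 to 14, with 14 of 1148 without array 1. The fits with 1 array left out needed only 2 values per clone. They cover 930 to 1398 clones, not the same 854. None of these calls was 1 of the 6 enzymes, except without centring. No clone of the 6 enzymes was on all 4 arrays, so that alternative gave no value. Each array holds both conditions, so the test on its ratios is itself paired, and with 1 group no further pairing was possible.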

Other observations

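In a list of genes for pyruvate entry, the tricarboxylic acid cycle and related enzymes such as Mdh1, 9 of the 13 genes on the array had values. From this list 4 clones were tested, of which 0 passed in either reading (limma). Mpc1, a subunit of the mitochondrial pyruvate carrier, stood at -0.04, -0.08 and 0.01 relative to the medians of arrays 1, 2 and 3. PCB, pyruvate carboxylase, stood at 0.16, -0.29 and 0.17 there, and SdhB, the iron-sulfur subunit of succinate dehydrogenase, at 0.15, 0.20 and 0.08. Mdh1, a malate dehydrogenase, stood at -0.09, -0.24 and 0.26. The means of the 4 clones ran from -0.19 to 0.09 in the turned reading, with a median of -0.07, and from -0.03 to 0.14 as deposited, with a median of -0.00. Over all clones tested the medians were -0.00 and 0.09. Values by array are as deposited, and those of arrays 3 and 4 take the opposite sign in the turned reading. On a single array each, Scsalpha1 had -0.12 (array 1), SdhD 0.36 (array 2), Ogdh, the E1 subunit of 2-oxoglutarate dehydrogenase, -1.32 (array 3) and Idh3b -0.53 (array 4). Men-b, a malic enzyme, had 0.14 and -0.42 on arrays 1 and 2.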
